A study of Mus musculus with 6 samples.

Results

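The subunits of the mitochondrial respiratory chain and of the ATP synthase were followed in subcutaneous pancreatic tumours of lactating and control mice. Members were all genes whose symbol begins with Ndufa, Ndufb, Ndufc, Ndufs or Ndufv and a number, the succinate dehydrogenase genes Sdha to Sdhd, and all symbols beginning with Uqcr, Cox4 to Cox8 or Atp5, without Ndufa4l2. Of 87 such symbols, 80 had a probe set that names no other gene, out of 18194 genes with such a probe set on the array. They were 33 genes of complex I, 4 of complex II, 8 of complex III, 11 of complex IV, 17 of complex V, 3 muscle isoforms of complex IV subunits and 4 other isoforms limited to certain tissues. The rule itself uses names and no measured value.

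The tumours grew from the mouse pancreatic ductal adenocarcinoma line KPC1199, injected under the skin of the right back. 3 tumours came from lactation mice, injected when pregnant or already nursing, and 3 from control mice. All were collected 20 days after injection from mice of the same age, and pregnancy at injection cannot be separated from nursing in the labels. Total RNA of each tumour was hybridised to 1 Affymetrix array, and the labels call the tumours biological replicates.

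The respiratory chain passes electrons from NADH and succinate to oxygen through complexes I to IV of the inner mitochondrial membrane. Complexes I, III and IV pump protons, and complex V, the ATP synthase, uses the proton gradient to make ATP. Most subunits are encoded in the nucleus and are made in nearly every cell, but complex IV has subunits with a form found mainly in heart and skeletal muscle (Cox6a2, Cox7a1, Cox8b), each with a widely expressed counterpart (Cox6a1, Cox7a2, Cox8a). Cox7a1 and Cox8b are also made in brown fat.

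The arrays had median signals from 99.3 to 111.0 and equal trimmed means, so they had been scaled to a common level before deposit. Their number limits the precision. Tumours differed in skeletal muscle RNA within both groups. On a log2 scale of the signal plus 16, the mean deviation of 22 muscle markers, all of 22 listed, from their own 6-array means was 1.36, -0.34 and -1.10 in lactation tumours 1, 2 and 3, against 0.26, 1.46 and -1.64 in control tumours 1, 2 and 3. Lactation tumour 1 and control tumour 2 therefore stood high in both groups, and values without them are given where a count moves. The summed signal of the markers ran from 24317 to 135003 in lactation tumours and from 17762 to 134108 in control tumours. Their median log2 difference was 0.060 and their mean -0.052, of opposite sign. In the marker lists of mast cells, macrophages, ductal epithelium and white fat all differences of tested genes had 1 sign. In these lists 0 genes passed the adjusted threshold. All 10 of 10 mast cell markers had negative differences, with a median of -1.09 and summed signal 2380.3 to 3439 in lactation tumours and 5382 to 9386 in control tumours. All 11 of 11 macrophage markers were negative, with a median of -0.26 and summed signal 43117 to 59594 in lactation tumours and 57793 to 68217 in control tumours. All 11 of 11 ductal epithelium markers were positive, with a median of 0.29 and summed signal 79524 to 113324 in lactation tumours and 73526 to 93844 in control tumours. Of 8 listed white fat markers, 4 were tested and all 4 were positive, with a median of 0.55. The summed signal of the 6 with a usable probe set was 2445 to 3706 in lactation tumours and 1721 to 4455 in control tumours. The part of these cells in the subunits' values was not tested. In whole tumours, fewer cells of a type and less RNA per cell cannot be told apart. The ductal keratin genes Krt8, Krt18 and Krt19 had signals of 6801 or more on every array.

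Across 76 members above the level filter, none passed an adjusted p of 0.05 between lactation and control tumours in limma, as for 0% of the 11623 genes tested. 1 member, Ndufa10, had an unadjusted p under 0.05, beside 2.27% of all genes. The 3 lactation values lay wholly below the 3 control values for 3 members (Ndufa10, Cox7a2, Atp5g3), beside 3.19% of all genes, and wholly above for 1 (Cox7c), beside 3.71%. That is 4 of 76 in either direction, beside 6.9% of all genes. Of the 72 widely expressed subunits above the filter, 55 had a negative difference, lactation minus control, beside 51.7% of all genes. The sizes were small. Their median log2 difference was -0.042, beside -0.0052 over all genes, and the values ran from -0.20 for Ndufa10 to 0.18 for Cox7c. For 72 of these 72 subunits the 95% interval of the difference, taken gene by gene, lay within 1.5-fold in either direction, beside 70.9% of all genes.

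**Figure D1:**
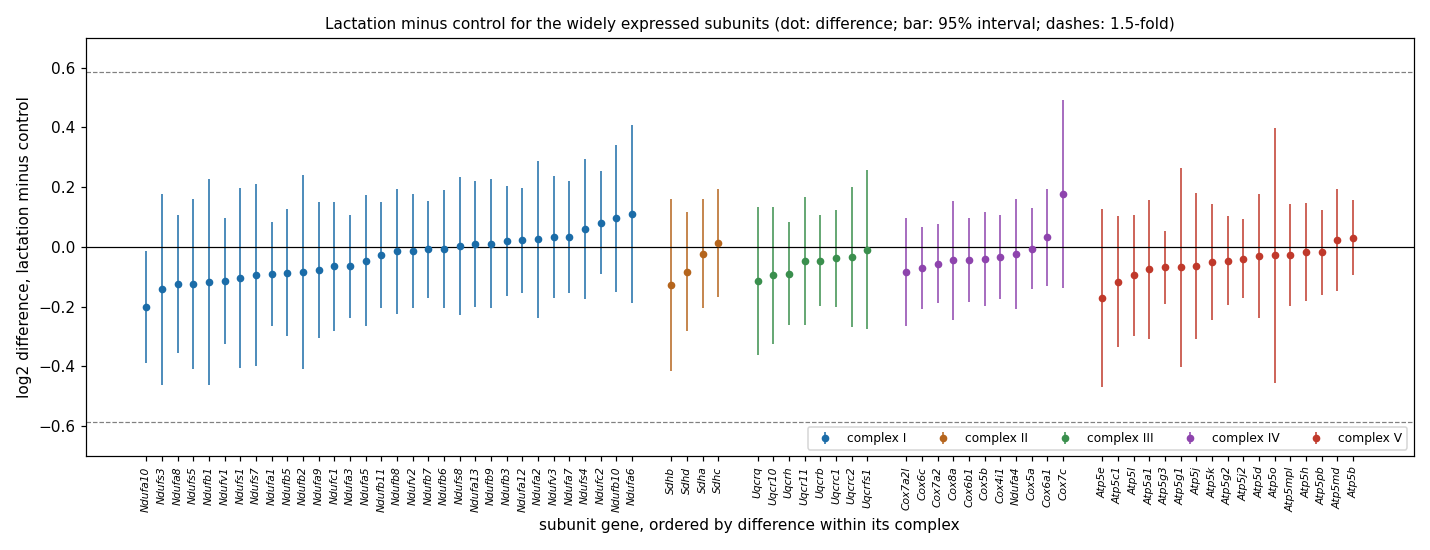
Log2 difference, lactation minus control, on the vertical axis for each widely expressed subunit, grouped by complex along the horizontal axis. Points are estimates and bars 95% intervals from limma (3 tumours a group). The points lie between -0.20 and 0.18, and 55 of 72 lie below 0.

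Complex I takes electrons from NADH and hands them to ubiquinone. In complex I, 20 of 32 subunits had a negative difference, with a median of -0.021. Ndufa10 is an accessory subunit of this complex. Ndufa10 had signals of 4029.9, 3639 and 3926 in lactation tumours 1, 2 and 3, against 4506, 4687 and 4149.9 in control tumours 1, 2 and 3, with means of 3865 ± 202 in lactation tumours and 4448 ± 273 in control tumours (SD, n = 3 each). All 3 lactation tumours lay below all 3 control tumours. The log2 difference was -0.20 ± 0.079 (SE), with a 95% interval from -0.39 to -0.015, an unadjusted limma p of 0.038 and an adjusted p of 0.9998, so it did not pass the test.

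The core subunits, which carry the flavin, the iron-sulfur clusters or the quinone site, were followed in every tumour. Ndufv1, which binds NADH and the flavin, had signals of 3429, 3154 and 2925 in lactation tumours 1, 2 and 3, against 3188, 3576 and 3527 in control tumours 1, 2 and 3. Its partner Ndufv2, which holds an iron-sulfur cluster, had signals of 5604, 4944 and 5095 in lactation tumours 1, 2 and 3, against 5490.5, 5394 and 4901 in control tumours 1, 2 and 3. Ndufs1, the large iron-sulfur subunit, had signals of 2021, 1649 and 1563 in lactation tumours 1, 2 and 3, against 1956, 2009 and 1651 in control tumours 1, 2 and 3. Ndufs1 was highest in lactation tumour 1 and lowest in lactation tumour 3, and the groups overlapped for all of these. Ndufs3, near the quinone site, had signals of 3472, 2471 and 2559 in lactation tumours 1, 2 and 3, against 3071, 3229 and 2979 in control tumours 1, 2 and 3. Ndufs7, which holds the cluster next to ubiquinone, had signals of 2641, 2229 and 1947 in lactation tumours 1, 2 and 3, against 2301, 2676 and 2272 in control tumours 1, 2 and 3. Ndufs8, another iron-sulfur subunit, had signals of 5366, 5014 and 5556 in lactation tumours 1, 2 and 3, against 5496, 5804 and 4654 in control tumours 1, 2 and 3. The log2 differences were -0.11 ± 0.089 for Ndufv1, -0.013 ± 0.081 for Ndufv2, -0.10 ± 0.13 for Ndufs1, -0.14 ± 0.14 for Ndufs3, -0.095 ± 0.13 for Ndufs7 and 0.0033 ± 0.098 for Ndufs8 (SE), and none passed the test. After Ndufa10 and Ndufs3, the most negative difference was that of the accessory subunit Ndufa8, -0.13 ± 0.098. The most positive were those of the accessory subunits Ndufa6, 0.11 ± 0.13, Ndufb10, 0.096 ± 0.10, and Ndufc2, 0.081 ± 0.073 (SE).

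Complex II, succinate dehydrogenase, belongs to the citric acid cycle as well as to the respiratory chain. In complex II, 3 of 4 subunits had a negative difference, with a median of -0.053. Sdha, the flavoprotein that oxidises succinate, had signals of 3805, 3363 and 3448 in lactation tumours 1, 2 and 3, against 3594, 3728 and 3452 in control tumours 1, 2 and 3. Sdhb, the iron-sulfur subunit, had signals of 4273, 3888 and 3255 in lactation tumours 1, 2 and 3, against 3980.3, 4613 and 3844 in control tumours 1, 2 and 3. Sdhb was highest in control tumour 2 and lowest in lactation tumour 3. The membrane anchor Sdhc had signals of 4049.6, 3775 and 3548 in lactation tumours 1, 2 and 3, against 3888, 3666 and 3694 in control tumours 1, 2 and 3. The other anchor, Sdhd, had signals of 2925, 2574 and 2813 in lactation tumours 1, 2 and 3, against 2750.3, 3096 and 2958 in control tumours 1, 2 and 3. The groups overlapped for all 4 genes. The differences were -0.022 ± 0.078 for Sdha, -0.13 ± 0.12 for Sdhb, 0.014 ± 0.077 for Sdhc and -0.083 ± 0.085 for Sdhd (SE).

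Complex III passes electrons from ubiquinol to cytochrome c. In complex III, 8 of 8 subunits had a negative difference, with a median of -0.047. The Rieske iron-sulfur protein Uqcrfs1 had signals of 3396, 2861 and 3044 in lactation tumours 1, 2 and 3, against 2972, 3578 and 2836 in control tumours 1, 2 and 3. The core protein Uqcrc1 had signals of 5435, 5019 and 4984 in lactation tumours 1, 2 and 3, against 5227, 5138 and 5487 in control tumours 1, 2 and 3. Its partner Uqcrc2 had signals of 4203, 3409 and 4063 in lactation tumours 1, 2 and 3, against 4041, 4156 and 3719.6 in control tumours 1, 2 and 3. In each of the 3 the groups overlapped, with differences of -0.0092 ± 0.11, -0.039 ± 0.069 and -0.034 ± 0.10 (SE) for Uqcrfs1, Uqcrc1 and Uqcrc2. The small subunits Uqcrq, Uqcr10 and Uqcrh had the most negative differences, -0.11 ± 0.11, -0.096 ± 0.097 and -0.090 ± 0.073 (SE), and none passed the test.

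Complex IV, cytochrome c oxidase, reduces oxygen to water. In complex IV, 9 of 11 subunits had a negative difference, with a median of -0.040. Cox4i1, the common form of subunit 4, had signals of 10654, 9854 and 10446 in lactation tumours 1, 2 and 3, against 10399.9, 10387 and 10883 in control tumours 1, 2 and 3. Cox5a had signals of 11596, 11377 and 11002 in lactation tumours 1, 2 and 3, against 11158, 11819.9 and 11159 in control tumours 1, 2 and 3. Cox5b, a zinc-binding subunit, had signals of 11101, 9951 and 10218 in lactation tumours 1, 2 and 3, against 11050.5, 10752 and 10331 in control tumours 1, 2 and 3. The differences of Cox4i1, Cox5a and Cox5b were -0.033 ± 0.060, -0.0067 ± 0.058 and -0.040 ± 0.066 (SE), with overlapping groups. The small subunit Cox7c had signals of 278, 245 and 239 in lactation tumours 1, 2 and 3, against 213, 228 and 226 in control tumours 1, 2 and 3. The other widely expressed complex IV subunits had signals of 4402 or more on every array. How well this dim probe set reports Cox7c was not tested. All 3 lactation values of Cox7c lay above the control values, with a difference of 0.18 ± 0.13 (SE), an unadjusted limma p of 0.226 and an adjusted p of 0.9998. Its other single-gene probe set, at or above the median on 1 of 6 arrays, had overlapping groups. Cox7a2l, a factor of respiratory supercomplexes, and Cox6c had differences of -0.084 ± 0.077 and -0.072 ± 0.058 (SE).

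Complex V has a catalytic head of alpha and beta subunits (Atp5a1, Atp5b) on a central stalk of gamma, delta and epsilon subunits (Atp5c1, Atp5d, Atp5e). In complex V, 15 of 17 subunits had a negative difference, with a median of -0.047. Atp5a1 had signals of 7197, 5874 and 5993 in lactation tumours 1, 2 and 3, against 6781, 7037 and 6216 in control tumours 1, 2 and 3. Atp5b had signals of 12024, 11535 and 11868 in lactation tumours 1, 2 and 3, against 11364, 11674 and 11660.0 in control tumours 1, 2 and 3. The signals of Atp5b had the narrowest range of all 72 widely expressed subunits, 1.06-fold from lowest to highest, and those of Atp5o, a subunit of the peripheral stalk, the widest, 1.62-fold. Atp5c1 had signals of 9841, 8802 and 8105 in lactation tumours 1, 2 and 3, against 10011, 10112 and 8850.2 in control tumours 1, 2 and 3. Atp5d had signals of 7399, 6181 and 6386 in lactation tumours 1, 2 and 3, against 7185, 6652 and 6499 in control tumours 1, 2 and 3. Atp5e had signals of 5766, 4485 and 4706 in lactation tumours 1, 2 and 3, against 5749.8, 6184 and 4887 in control tumours 1, 2 and 3. The groups overlapped for all 5, with differences of -0.076 ± 0.098 for Atp5a1, 0.030 ± 0.053 for Atp5b, -0.12 ± 0.093 for Atp5c1, -0.030 ± 0.088 for Atp5d and -0.17 ± 0.13 for Atp5e (SE). The membrane subunit Atp5l had -0.095 ± 0.086 and the small subunit Atp5md 0.022 ± 0.072 (SE).

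Probe sets of a gene did not always give the same sign. Among probe sets at or above the array median on all 6 arrays, the log2 difference of a second probe set was 0.093 ± 0.092 for Atp5d, 0.28 ± 0.14 for Sdhd, 0.064 ± 0.11 for Uqcrh, 0.22 ± 0.19 for Atp5c1 and -0.079 ± 0.069 for Ndufc2 (SE), each opposite in sign to the value of the brighter probe set used. Both further probe sets of Uqcr10 were positive too, 0.043 ± 0.15 and 0.21 ± 0.22 (SE). With the mean of all probe sets of a gene, dim ones included, the median of the widely expressed subunits was -0.022. With the brightest probe set and arrays centred on their medians it was -0.088, where the median of all genes was -0.051. The median of complex I was 0.0013 without control tumour 2, and it was also just above 0 without lactation tumour 3. With 1 tumour left out at a time, the median of all widely expressed subunits ran from -0.078 without lactation tumour 1 to -0.015 without lactation tumour 3.

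The widely expressed subunits varied little among the 6 tumours. The highest over the lowest signal had a median of 1.19 over the 72, and 71 were under 1.5. None reached 2, beside 13.6% of all genes tested. The median was 1.12 in complex IV, against 1.22 in complex I, 1.17 in complex II, 1.22 in complex III, 1.196 in complex V and 1.36 over all genes. Most of the 72 had signals far above the array medians. The genes they are set beside, here and for the 95% intervals, were not matched by level. Among the 17 genes of the citric acid cycle and of pyruvate entry the ratio reached at most 1.44 (Suclg1). Among the 42 assembly factors tested it reached 1.83 (Sdhaf3). These ranges are descriptions and were not tested.

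**Figure D2:**
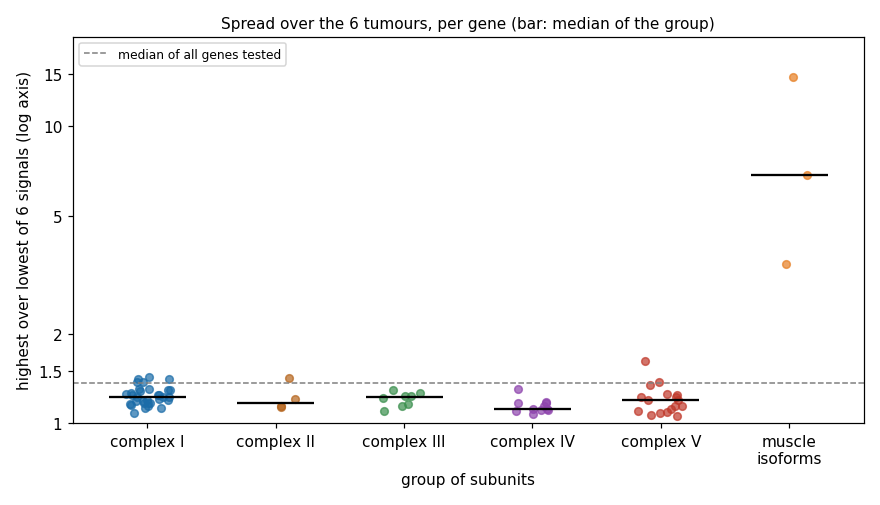
Highest over lowest of the 6 signals for each subunit (vertical log axis), by complex and for the muscle isoforms (horizontal axis). Bars mark the median of each group. The widely expressed subunits reach at most 1.62, and the muscle isoforms lie at 3.43, 6.86 and 14.6.

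The small variation was shared among subunits. Mean deviations of the 72 from their own 6-array means were 0.081, -0.060 and -0.080 in lactation tumours 1, 2 and 3, against 0.0097, 0.073 and -0.022 in control tumours 1, 2 and 3, on the log2 scale. Lactation tumour 1 held the highest value of 31 subunits and control tumour 2 of 25. Lactation tumour 3 held the lowest value of 30 and lactation tumour 2 of 21. In complex V the deviations were 0.098, -0.065 and -0.11 in lactation tumours 1, 2 and 3, against 0.028, 0.083 and -0.034 in control tumours 1, 2 and 3. Complex IV moved less, with 0.023, -0.034 and -0.016 in lactation tumours 1, 2 and 3, against -0.0071, 0.014 and 0.020 in control tumours 1, 2 and 3. Both tumours with the highest subunit values were those with the most muscle RNA, whose part in these values was not tested. Control tumour 3 had the least muscle RNA and not the lowest subunit values.

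**Figure D3:**
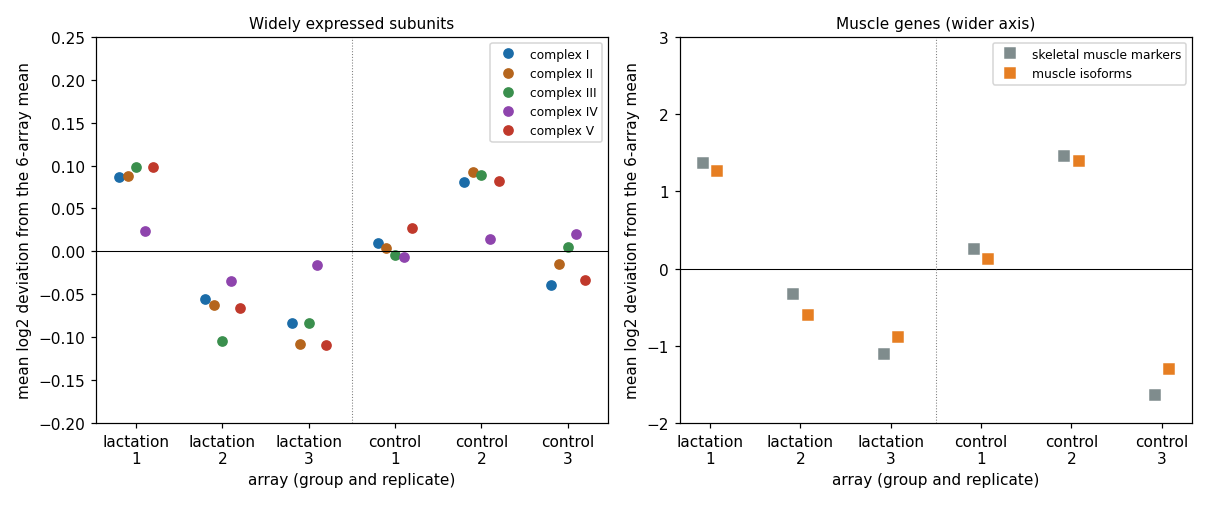
Mean log2 deviation from the 6-array mean (vertical axis) in each tumour (horizontal axis), for the widely expressed subunits by complex on the left and for skeletal muscle markers and muscle isoforms on the right, on a wider axis. Points of lactation tumour 1 and control tumour 2 lie highest for complexes I, II, III and V and for the muscle genes.

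The overlap of the groups changed when lactation tumour 1 was left out. Without it, the remaining lactation values lay wholly below the control values for 31 of 76 members, beside 9.09% of all genes, and wholly above for 1, beside 9.62%. These 31 were 10 of 32 in complex I, 1 of 4 in complex II, 6 of 8 in complex III, 4 of 11 in complex IV and 10 of 17 in complex V. Control tumour 2, the other tumour with much muscle RNA, was kept there. The subunits share arrays and moved together, so these counts do not add up independent observations. Without both tumours, a choice made after seeing the data, 31 members lay wholly below, beside 14.4% of all genes, and 2 wholly above, beside 13.7%. The medians were then -0.046 in complex I, -0.067 in complex II, -0.11 in complex III, -0.065 in complex IV and -0.081 in complex V. In both fits 0 members had an adjusted p under 0.05 in limma. Without control tumour 2 alone, 5 of 76 members did not overlap in either direction, beside 14.1% of all genes. With lactation tumour 2 or 3 or control tumour 1 or 3 left out alone, the count was 4 to 8. Each of these shares was smaller than that of all genes in the same fit.

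The muscle isoforms of complex IV varied far more than the widely expressed subunits. Cox6a2 had signals of 2328, 663 and 472 in lactation tumours 1, 2 and 3, against 1054, 2315 and 339 in control tumours 1, 2 and 3. Cox7a1 had signals of 356, 144 and 188 in lactation tumours 1, 2 and 3, against 222, 422 and 123 in control tumours 1, 2 and 3. Cox8b had signals of 1614, 255 and 145 in lactation tumours 1, 2 and 3, against 505, 1787 and 122 in control tumours 1, 2 and 3. All 3 were highest in lactation tumour 1 or control tumour 2 and lowest in control tumour 3, and the groups overlapped. The differences were -0.063 ± 0.79 for Cox6a2, -0.084 ± 0.47 for Cox7a1 and -0.29 ± 1.11 for Cox8b (SE). The interval for Cox8b, from -2.92 to 2.33, was too wide to show a difference or its absence. The skeletal muscle markers were high in the same tumours, with deviations of 1.36 in lactation tumour 1 and 1.46 in control tumour 2. Of the brown fat markers, the defining gene Ucp1 had signals from 2.53 to 4.65 in lactation tumours and from 3.11 to 4.12 in control tumours, below the level filter. 2 of the 6 listed brown fat markers, Dio2 and Pparg, were above it.

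Their widely expressed counterparts were steady. Cox6a1 had signals of 14018, 14576 and 15443 in lactation tumours 1, 2 and 3, against 14323, 13523 and 15241 in control tumours 1, 2 and 3. Cox7a2 had signals of 11628, 11618 and 11288 in lactation tumours 1, 2 and 3, against 11632, 11849.5 and 12448 in control tumours 1, 2 and 3. Cox8a had signals of 4756, 5006 and 4442 in lactation tumours 1, 2 and 3, against 4486, 4979 and 5207 in control tumours 1, 2 and 3. The lactation values of Cox7a2 lay below the control values by a small step, with a difference of -0.057 ± 0.056 (SE). A second Cox7a2 probe set, at or above the median on all 6 arrays, had overlapping groups, with -0.057 ± 0.070 (SE). Cox6a1 and Cox8a overlapped, with 0.032 ± 0.069 and -0.046 ± 0.085 (SE). None passed the test. Within a tumour, the log2 signal of the muscle form minus that of its counterpart spanned 7.39-fold over the 6 tumours for Cox6a2 and Cox6a1, 3.31-fold for Cox7a1 and Cox7a2 and 13.6-fold for Cox8b and Cox8a.

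**Figure D4:**
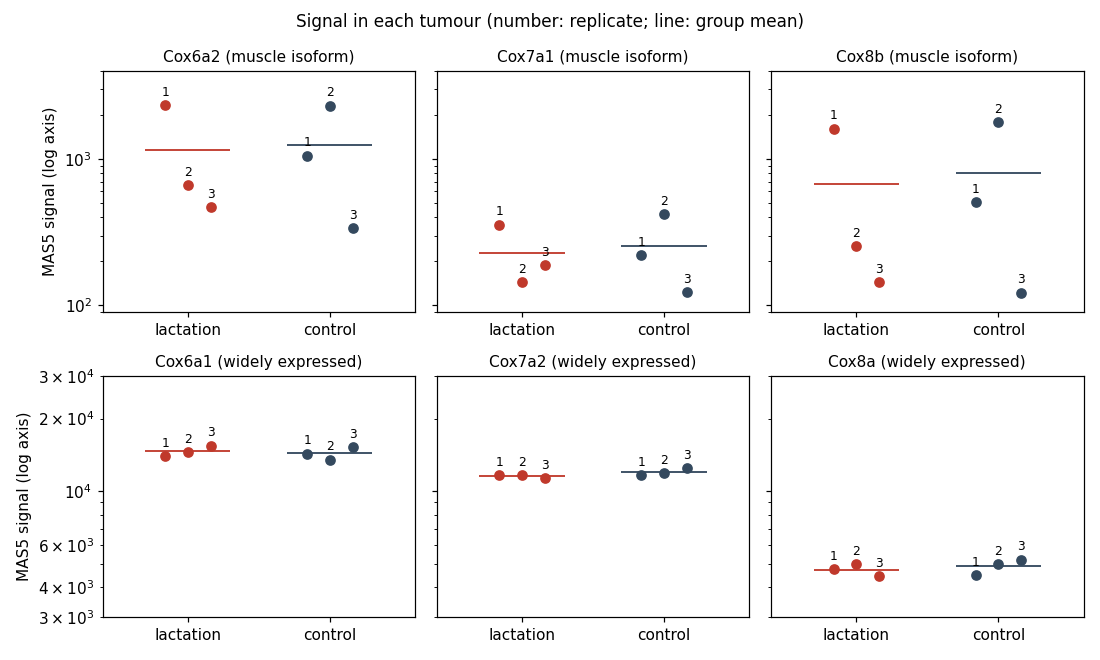
Signal (vertical log axis) of each muscle isoform in the upper row and its widely expressed counterpart in the lower row, in lactation and control tumours (horizontal axis). Points are tumours, labelled with the replicate number, and bars are group means. The muscle forms spread from 122 to 2328 with overlapping groups, and the counterparts span 1.14-fold for Cox6a1, 1.10-fold for Cox7a2 and 1.17-fold for Cox8a.

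The 250 bases upstream of the start of transcription are shown for the muscle and widely expressed forms, since these genes differed most in their variation. The sequences are from RefSeq on GRCm38.p6, 5′ to 3′ on the gene's strand, and capitals mark matches to an NRF1, ETS, E-box or MEF2 motif on either strand. The coordinates are Cox7a1 chr7:30183921-30184170, plus strand, Cox8b chr7:140900447-140900696, minus strand, Cox6a1 chr5:115348959-115349208, minus strand, Cox7a2 chr9:79759854-79760103, minus strand, Cox8a chr19:7217617-7217866, minus strand. Cox6a2 is not shown.
Cox7a1: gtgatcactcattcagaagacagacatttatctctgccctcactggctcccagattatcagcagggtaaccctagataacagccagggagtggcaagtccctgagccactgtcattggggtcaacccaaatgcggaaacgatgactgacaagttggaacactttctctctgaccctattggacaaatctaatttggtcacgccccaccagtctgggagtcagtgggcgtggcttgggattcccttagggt
Cox8b: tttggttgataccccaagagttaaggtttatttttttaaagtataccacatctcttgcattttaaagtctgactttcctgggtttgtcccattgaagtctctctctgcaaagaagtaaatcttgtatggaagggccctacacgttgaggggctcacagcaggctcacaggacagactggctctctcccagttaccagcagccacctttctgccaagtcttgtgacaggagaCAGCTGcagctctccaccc
Cox6a1: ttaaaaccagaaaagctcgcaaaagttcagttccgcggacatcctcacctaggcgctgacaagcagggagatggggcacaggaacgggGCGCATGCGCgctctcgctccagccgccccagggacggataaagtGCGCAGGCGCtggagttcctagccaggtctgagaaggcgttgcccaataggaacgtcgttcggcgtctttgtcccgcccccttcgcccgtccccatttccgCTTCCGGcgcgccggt
Cox7a2: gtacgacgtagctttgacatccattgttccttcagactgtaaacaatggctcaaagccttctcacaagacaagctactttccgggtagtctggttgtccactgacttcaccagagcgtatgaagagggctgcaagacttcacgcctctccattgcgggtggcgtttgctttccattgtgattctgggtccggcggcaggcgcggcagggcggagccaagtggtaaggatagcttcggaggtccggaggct
Cox8a: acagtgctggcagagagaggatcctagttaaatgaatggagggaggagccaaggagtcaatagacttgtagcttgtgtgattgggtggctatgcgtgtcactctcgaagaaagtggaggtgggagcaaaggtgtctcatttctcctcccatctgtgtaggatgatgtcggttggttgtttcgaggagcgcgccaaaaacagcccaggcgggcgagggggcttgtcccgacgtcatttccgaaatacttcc

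Cox6a1 had an NRF1 match whose first base lay 162 and another 117 bases before the start, and an ETS match 16 bases before it. Cox8b had an E-box match 19 bases before the start, and no letters of these 4 motifs were found for Cox7a1, Cox7a2 and Cox8a in this window. NRF1 and the ETS factor GABP are known regulators of nuclear genes of the respiratory chain, and E-box and MEF2 motifs are bound by muscle factors. Promoters were listed for 61 of the 72 widely expressed subunits. The NRF1 motif of 10 letters occurred in 9 of them (14.8%), beside 3.86% of 27025 promoters of the same length. The ETS motif CCGGAAG occurred in 11 (18%), beside 7.05%. The E-box CAGCTG occurred in 5 (8.2%), beside 12.8%, and the MEF2 motif of 10 letters in 1 (1.64%), beside 3.23%. After these shares had been seen, shorter forms were searched too: the NRF1 core CGCANGCG occurred in 13 (21.3%), beside 6.94%, and the MEF2 form CTANNNNTA in 8 (13.1%), beside 19.0%. The short MEF2 form also occurred in the promoter of the muscle form Cox7a1, 184 bases before the start, and in that of Cox7a2, 28 bases before it, and is not in capitals there. The share with a MEF2 match thus moved strongly with the letters chosen. A match is a description of the letters and was not tested as a site.

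Of the other isoforms limited to certain tissues, Cox8c was above the level filter. Cox8c had signals of 262, 279 and 266 in lactation tumours 1, 2 and 3, against 248.98, 197 and 279 in control tumours 1, 2 and 3, with overlapping groups and a difference of 0.16 ± 0.16 (SE). Cox4i2, the lung and hypoxia form of subunit 4, Cox6b2, a testis form, and Cox7b2 lay below the filter and were not tested. Cox4i2 had signals of 45.8, 96.5 and 58.4 in lactation tumours 1, 2 and 3, against 98.3, 78.6 and 64.03 in control tumours 1, 2 and 3. Cox6b2 had signals of 82.1, 81.1 and 59.2 in lactation tumours 1, 2 and 3, against 55.3, 47.7 and 91.7 in control tumours 1, 2 and 3. Cox7b2 had signals of 1.85, 0.968 and 5.12 in lactation tumours 1, 2 and 3, against 10.99, 4.31 and 0.793 in control tumours 1, 2 and 3. The groups overlapped for all 3 isoforms. Ndufb4 was also below the filter, and its other probe sets name several genes.

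Genes that work with the complexes were followed in lists, and in each 0 genes passed the adjusted threshold in either direction. Of 42 assembly factors tested, 27 had negative differences, with a median of -0.042. Coa7, an assembly factor of complex IV, had signals of 241, 242 and 246 in lactation tumours 1, 2 and 3, against 291, 337 and 375 in control tumours 1, 2 and 3. Its lactation values lay below the control values, with a difference of -0.43 ± 0.14 (SE) and an unadjusted limma p of 0.0160. Ndufaf6, an assembly factor of complex I, had -0.34 ± 0.14 and also did not overlap, and Sdhaf3, of complex II, had -0.30 ± 0.20 (SE). In all, 3 of the 42 lay wholly below the control values (Coa7, Ndufaf6, Surf1), beside 3.19% of all genes, and 2 wholly above, beside 3.71%: Acad9, 0.27 ± 0.12, and Cox15, 0.27 ± 0.13 (SE). Surf1, Acad9 and Cox15 are named after their values were seen. Among 17 electron carriers and quinone-linked enzymes, 9 were negative, with a median of -0.0077 and a mean of 0.033, of opposite sign. Coq5, a methyltransferase of ubiquinone synthesis, had 0.31 ± 0.11, Sqor, which oxidises sulfide, 0.35 ± 0.23, and Prodh, which oxidises proline, 0.25 ± 0.21 (SE). The lactation values of Coq5 lay wholly above the control values, with an unadjusted limma p of 0.0296. It was 1 of the 17 to do so, beside 3.71% of all genes. Its lowest difference among the processing alternatives was 0.063.

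Of 7 adenine nucleotide and phosphate carriers and porins, 4 had negative differences, with a median of -0.046. The ADP/ATP carrier Slc25a5 had signals of 7985, 7821 and 7225 in lactation tumours 1, 2 and 3, against 8341, 8385 and 9231 in control tumours 1, 2 and 3. All lactation values lay below the control values, with -0.17 ± 0.073 (SE), an unadjusted limma p of 0.0492 and an adjusted p of 0.9998. It was 1 of the 7 to lie wholly below, beside 3.19% of all genes. The muscle carrier Slc25a4 had -0.11 ± 0.17 and Ucp3 0.23 ± 0.41 (SE). Of 17 genes of the citric acid cycle and of pyruvate entry (Pdha1, Pdhb, Dlat and Pcx), 14 were negative, with a median of -0.058. Dlat, Idh3g and Dlst had the largest differences, -0.18 ± 0.099, -0.12 ± 0.098 and -0.11 ± 0.081 (SE). The lactation values of Mdh2, named after its values were seen, lay wholly below the control values, as 1 of the 17, beside 3.19% of all genes. Of 14 regulators of mitochondrial gene expression, 5 were negative, with a median of 0.032. The coactivator Ppargc1a had 0.17 ± 0.35, the factor Nrf1 0.14 ± 0.12 and Tfam, which binds mitochondrial DNA, 0.11 ± 0.11 (SE). The lactation values of Nrf1 lay wholly above the control values, as 1 of the 14, beside 3.71% of all genes. ND5, a complex I subunit and the only mitochondrially encoded gene of 26 with a single-gene probe set, had -0.045 ± 0.086 (SE).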

How the data were processed

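Total RNA of 6 tumours, 3 lactation and 3 control, was measured on Affymetrix arrays, 1 each. The deposited values are 1 intensity per probe set, and per the submitters' processing notes the authors used MAS5 (version not given in the sources used here), and values are linear and positive. Detection calls and scanner files were not analysed here. Of 45101 probe sets, 34958 had 1 gene symbol, 932 several and 9211 none, and those with 1 were used. Each gene took its probe set of highest mean. Intensity plus 16 was taken to log2, and genes with at least 3 of 6 arrays at or above their array's median (11623) were compared between the groups with limma's lmFit and trended eBayes (limma 3.58.1, R 4.3.3), with p-values adjusted by Benjamini-Hochberg over all genes. Differences are on this log2 scale, where those of dim genes are understated. Plots were drawn with matplotlib 3.10.9, and tables with pandas 2.3.3 and numpy 2.4.6 under Python 3.11.15. The fit was tested on simulated data.

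Members and lists were chosen with earlier results of these data known. Ndufa4 was counted with complex IV. All 80 members matched the RefSeq gene table by identifier under the same symbol. Promoters are RefSeq's on GRCm38.p6. Named in full were the central subunits, complex II, isoforms with their counterparts, up to 3 members at each end of a complex, members with an unadjusted p under 0.05 and up to 3 of each list. In pairs of same-numbered tumours the deviations from the group means correlated, over genes, at 0.143, -0.083 and 0.267. With 3 tumours a group, these values cannot show whether the numbers pair the samples. The main fit used no pairing. Alternatives were quantile normalization, centring on the median, added constants of 1 and 64, other filters, other probe set rules, no trend, a replicate block and leaving out each array.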

Additional observations from a re-analysis of the deposited data

How the results depend on the processing

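Under all alternatives run, 0 members had an adjusted p under 0.05 in limma. The count of members whose groups did not overlap was 4 (beside 6.9% of all genes), 2 (beside 6.75% of all genes) with quantile normalization, 2 (beside 6.62% of all genes) with arrays centred on their medians, and 4 to 32 with 1 array left out. The shares of all genes moved too: 32 (beside 18.7% of all genes) without lactation tumour 1, 8 (beside 21.7% of all genes) without control tumour 1, 7 (beside 14% of all genes) without control tumour 3, and 33 (beside 28.1% of all genes) without lactation tumour 1 and control tumour 2, an alternative added after seeing the data. Of 76 members, 8 without control tumour 1 is a smaller share than that of all genes, and so is 7 without control tumour 3. The share was also smaller with 6 members (beside 18.2% of all genes) without lactation tumour 2. The same held for 4 (beside 12% of all genes) without lactation tumour 3 and 5 (beside 14.1% of all genes) without control tumour 2. The median difference of complex IV, -0.040, was -0.086 with centred arrays, -0.057 to -0.0077 with 1 array left out and -0.065 without those 2 tumours. Centring moved the median of all genes to -0.051. For the other complexes the median moved from its main value by less than the spread between replicates. Without lactation tumour 1 the medians were -0.099 in complex II, -0.11 in complex III and -0.11 in complex V. That of complex I was just above 0 without control tumour 2 (0.0013) or without lactation tumour 3. With the replicate number as a block, 0 members passed the adjusted threshold and 4 did not overlap, as without it; lactation tumour 1 correlated best with control tumour 2 (0.458), not with its own number. With arrays centred on their medians, the sign turned for Atp5b (-0.016), Atp5md (-0.024), Cox6a1 (-0.014), Ndufs8 (-0.043), Sdhc (-0.032). With the mean of all probe sets of a gene, the sign turned for Atp5c1 (0.053), Atp5d (0.032), Cox5b (0.015), Ndufc2 (-0.12), Sdhd (0.097), Uqcr10 (0.052), Uqcrq (0.067), Sdhaf3 (0.13). With probe sets that can cross-hybridise avoided, the sign turned for Atp5c1 (0.22), Ndufc2 (-0.079), Uqcrh (0.064), Uqcrq (0.10). With quantile normalization, the sign turned for Cox5a (0.0047), Uqcrfs1 (0.00026). Without lactation tumour 1 and control tumour 2, the sign turned for Atp5md (-0.018), Cox5a (0.0038), Sdhc (-0.050), Uqcrfs1 (0.024). With 1 array left out, the difference changed sign for these genes, with its lowest and highest values: Atp5d -0.11 to 0.021, Atp5md -0.030 to 0.062, Cox5a -0.024 to 0.021, Cox6a1 -0.010 to 0.076, Cox6a2 -0.78 to 0.58, Cox7a1 -0.49 to 0.34, Cox8a -0.11 to 0.00095, Cox8b -1.28 to 0.62, ND5 -0.12 to 0.036, Ndufb10 -0.0087 to 0.16, Ndufs7 -0.21 to 0.0097, Ndufs8 -0.090 to 0.069, Ndufv2 -0.066 to 0.024, Ppargc1a -0.20 to 0.44, Sdha -0.076 to 0.013, Sdhc -0.034 to 0.061, Slc25a4 -0.27 to 0.047, Ucp3 -0.18 to 0.65, Uqcrc2 -0.092 to 0.059, Uqcrfs1 -0.076 to 0.091. The turns of Uqcrq, of Cox5b and part of that of Ndufc2 rest on probe sets with no array at or above its median and say nothing of these genes. The cause of the other changes was not tested. Of 42 members with over 1 probe set above the filter, 20 had probe sets of both signs, with a median span of 0.0788, the largest for Sdhd (-0.083 to 0.28). 3 arrays a group and 1 signal per probe set, with no detection calls used, limit the precision.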

Other observations

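7 symbols of the rule were found on probe sets that name several genes and were left out of the counts. The probe set shared by Ndufa11 and Ndufa11b had signals of 3411, 2987 and 2881 in lactation tumours 1, 2 and 3, against 3431, 3023 and 3178 in control tumours 1, 2 and 3, a log2 difference of -0.056 ± 0.093 (SE). That of Ndufs6 and Ndufs6b had 3609, 3621 and 3733 in lactation tumours 1, 2 and 3, against 3497, 3738 and 3323 in control tumours 1, 2 and 3, a difference of 0.056 ± 0.075 (SE). The brighter probe set of Ndufb4, Ndufb4b and Ndufb4c had 4419.9, 3609.5 and 3675 in lactation tumours 1, 2 and 3, against 4155, 4404 and 4176 in control tumours 1, 2 and 3, a difference of -0.13 ± 0.095 (SE). The groups overlapped for all 3. The probe set of Ndufs5 and Ndufs5-ps had 3136, 3046 and 2757 in lactation tumours 1, 2 and 3. Its control values, 3193, 3488 and 3177, were all higher, with a difference of -0.14 ± 0.084 (SE). A dimmer probe set of Ndufb2 and Adck2 had 177, 184 and 157 in lactation tumours 1, 2 and 3. Its control values, 132, 52.7 and 118, were all lower, with a difference of 0.77 ± 0.30 (SE).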
